A study of Homo sapiens with 8 samples.

Results

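The 39 human HOX genes of the HOXA, HOXB, HOXC and HOXD clusters were examined in 8 poly(A)-selected RNA libraries of a HEK293T reporter line. Members were all genes whose symbol is HOXA, HOXB, HOXC or HOXD followed by digits, and each of the 39 was matched to 1 of the 60652 gene rows by Ensembl ID. HEK293T is a line derived from embryonic kidney, and the version used here carries GFP behind the tetracycline-response promoter TRE3G. All libraries came from cells that had received plasmids for an activator and a guide and that were sorted 2 days later for mCherry and BFP. In both activators a Cas protein that cannot cut DNA carries the VPR activation domains: dCasMINI is a compact one, and dCas12a is larger. Each group had 2 libraries: dCasMINI-VPR with sgTet, a guide named for Tet (sgTet); dCasMINI-VPR with a non-targeting guide (sgNT); dCas12a-VPR with crTet (crTet); and dCas12a-VPR with a non-targeting guide (crNT). No untransfected cells or cells without an activator were included here, transfection was transient, and the labels give no guide sequence. The labels do not say that the 2 libraries of a group came from separate transfections, so the p-values measure the spread between these libraries, which may be technical.

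HOX proteins are homeodomain transcription factors that give cells their position along the head to tail axis. Genes at the low-numbered end of each cluster are switched on in anterior regions, and those at the high-numbered end in posterior regions and in the limbs. They bind DNA with PBX and MEIS partners, Polycomb proteins keep silent clusters closed, trithorax proteins keep active ones open, and retinoic acid induces the low-numbered genes. In the kidney lineage the group 11 genes are needed for the metanephric kidney, as shown in mice.

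The reporter row checked the guides: EGFP had 919 and 1092 CPM (gene reads scaled to library size) in sgTet and 3.22 and 4.42 CPM in sgNT. In the dCas12a-VPR libraries EGFP had 803 and 707 CPM in crTet and 2.76 and 2.66 CPM in crNT. Libraries held 17474404 to 21081942 gene reads, so that 3 reads corresponded to 0.142 to 0.172 CPM. The crNT libraries had 14.4% and 12.7% unmapped reads, against 8.32% to 9.62% in the other 6. The 11 HEK293T markers summed to 1285 to 1566 CPM, much of it from 1 gene that reached 1030 CPM. The haematopoietic, endothelial, fibroblast, skeletal muscle and epithelial lists summed to at most 46.3 CPM in any library. These sums depend on which genes were listed and do not by themselves identify the line. Of the 11 HEK293T markers, all tested, 2 were called higher with the dCas12a-VPR guide effect, where 3.56% of all tested genes were. In sgNT against crNT 2 were called higher and 1 lower, where 4.09% and 3.6% of all tested genes were. These 2 comparisons had the largest numbers of called HOX genes, and the part of the markers in those results was not tested. In bulk libraries fewer expressing cells and less RNA per cell cannot be told apart.

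HOX transcripts came from all 4 clusters, and the levels did not follow the order along the chromosome. Levels are compared between genes as CPM per kb of exon that no other GENCODE release 29 gene shares, as the mean ± SD over the 8 libraries. HOXB9, a thoracic patterning gene, stood first at 95.0 ± 12.0 CPM per kb. HOXD13, a digit gene mutated in synpolydactyly, followed at 76.6 ± 7.79, and HOXA5, which shapes lung and airway in mice, at 59.2 ± 15.5. These 3 genes formed a top tier: the lowest HOXA5 library (37.8) lay above the highest library of HOXA9 (33.5), the next gene. HOXA9, a haematopoietic progenitor gene, averaged 25.6 ± 5.57 CPM per kb, HOXA6 21.2 ± 5.80, and HOXC4, the leading HOXC gene, 20.1 ± 2.16. Below the gap the order was loose, since the ranges of 36 of 38 neighbouring pairs in the order overlapped, and only the steps from HOXA5 to HOXA9 and from HOXC5 to HOXB1 did not.

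At the low end of the scale stood HOXA2, HOXD12, HOXD1, HOXC5 and HOXB1. HOXB1, a hindbrain gene, had reads in 1 crTet library (0.0975 CPM) and 1 crNT library (0.154 CPM) and none in the other 6, all at or below the level of 3 reads. HOXC5 had 1 to 6 reads per library, and HOXD1 at most 0.749 CPM. HOXD12, a limb gene, was low at 0.752 ± 0.212 CPM per kb although it lies next to HOXD13. As mean CPM over all libraries, 3 members lay under 1, 7 from 1 to 5, 9 from 5 to 20, 15 from 20 to 50 and 5 at 50 or above. HOXB1 and HOXC5 did not pass the filter on low counts, so 37 members were tested.

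**Figure D1:**
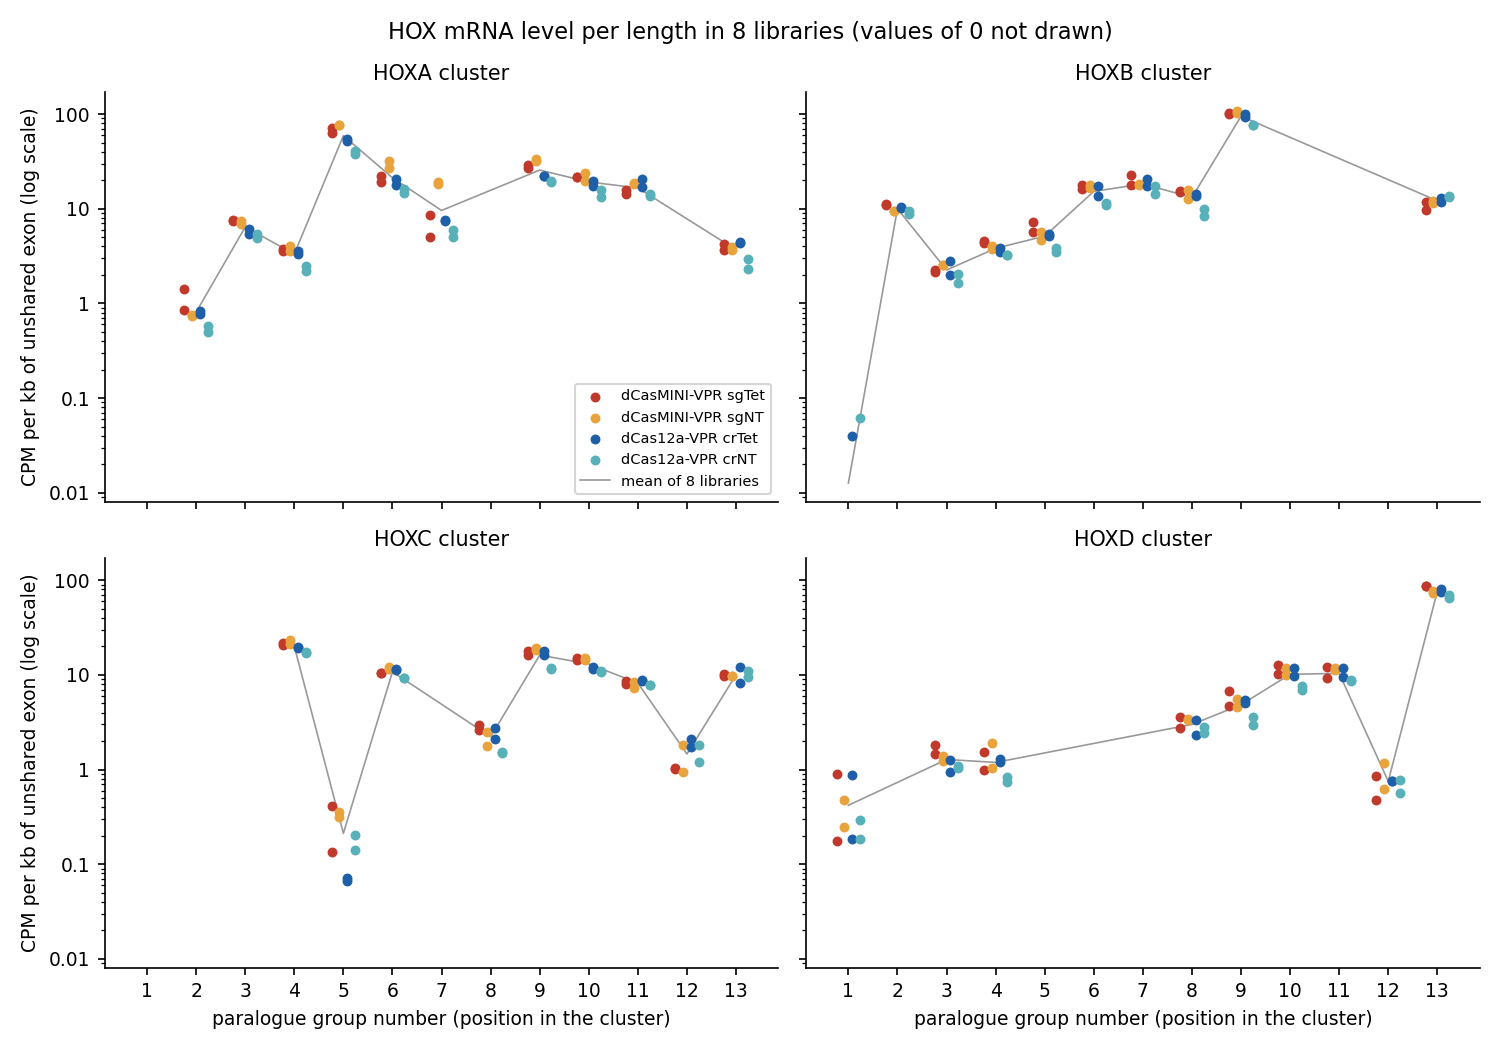
CPM per kb of unshared exon (log axis) for HOX genes by paralogue group, 1 panel per cluster; points are libraries coloured by group, and the line joins the means of 8 libraries. HOXB9, HOXD13 and HOXA5 lie highest, HOXB1 lies lowest, and the crNT points lie below the others for most genes.

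The counting of reads bears on these levels. The deposited counts ignore strand, and a read that touches exons of 2 genes was counted for neither. Of the members, 15 have no exon shared with another gene and 24 share some. For 17 members more than 10% of the reads on the strand columns were absent from the unstranded column, which leaves out reads that a gene of the opposite strand also claims. GENCODE release 29 has opposite-strand exon on 16 of the 17 and none on HOXD8 (19.5% of reads). The authors' annotation release was not stated. The share was 78.9% for HOXD1, 65.1% for HOXB6, 60.9% for HOXA7 and 58.8% for HOXA10, and 0% for HOXB9 and HOXD13. For HOXD1, 55 reads over all 8 libraries were counted and 206 were shared. HOXC5 shares 1081 of its 1805 exon bases with genes of the same strand, whose reads the strand columns do not recover. The low levels of HOXD1 and HOXC5 leave out such reads. Dividing by all exon bases instead moved HOXA6 from rank 5 to 10 and HOXA7 from 21 to 26, and left the first 4 ranks in place.

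By cluster, HOXB held 36.1% ± 1.03 of the summed HOX CPM (SD over 8 libraries), HOXA 28.1% ± 2.39, HOXD 19.9% ± 1.11 and HOXC 15.9% ± 0.805. Per kb of unshared exon, HOXA and HOXB were level at 32.3% each. HOXA had the widest range, 24.9% to 31.7% of the CPM. Single genes weighed heavily in 2 of the sums. HOXB9 averaged 245 CPM of a mean HOXB sum of 428, and HOXD13 172 CPM of a mean HOXD sum of 236.

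The summed HOX level was lowest in crNT. All 39 members together had 1283 and 1290 CPM in sgTet, 1290 and 1328 CPM in sgNT, 1186 and 1192 CPM in crTet, and 944 and 992 CPM in crNT. The sums of both crNT libraries lay below all others in each of the 4 clusters. HOXA sums were 379 and 360 CPM in sgTet, 409 and 410 CPM in sgNT, 319 and 322 CPM in crTet, and 235 and 259 CPM in crNT, so that this cluster also separated the other groups. The HOXD sum differed in that sgTet was highest, at 264 and 266 CPM, against 240 and 236 CPM in sgNT. Most of that sum was HOXD13, with 195 and 193 CPM in sgTet and 173 and 164 CPM in sgNT. HOXD13 was not called between these 2 groups (edgeR adjusted p = 0.240). Gene by gene, crNT had the lowest group mean for 34 of 37 tested members, while 30.7% of all tested genes had theirs in crNT. For 26 of the 37, both crNT libraries lay below the other 6, which held for 11.6% of all tested genes. The single lowest library was crNT replicate 1 for 20 members and crNT replicate 2 for 8. The prostate gene HOXB13 went the other way, with 33.5 and 40.9 CPM in sgTet, 42.1 and 40.1 CPM in sgNT, 40.5 and 45.03 CPM in crTet, and 47.9 and 46.7 CPM in crNT. The larger unmapped share of the crNT libraries moves with the low HOX level, and its part in the result was not tested.

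**Figure D2:**
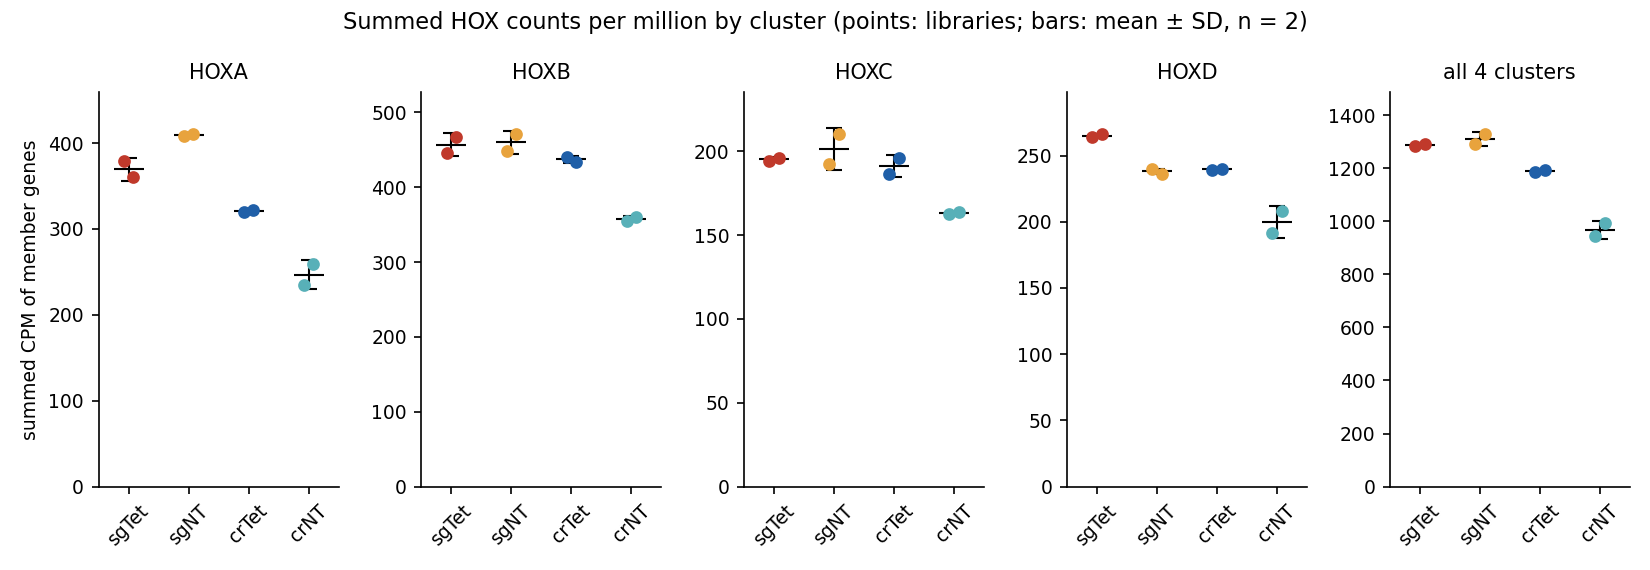
Summed CPM of the member genes per library, 1 panel per cluster and 1 for all 4; points are libraries and bars are mean ± SD (n = 2). Both crNT libraries lie lowest in every panel, at 944 and 992 for all 4 clusters.

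With dCasMINI-VPR, 1 HOX gene changed between the Tet and the non-targeting guide. HOXA7, a trunk patterning gene in the middle of the HOXA cluster, had 4.55 and 7.69 CPM in sgTet against 17.2 and 16.3 CPM in sgNT. It also had 6.82 and 6.76 CPM in crTet and 5.43 and 4.57 CPM in crNT, so sgNT stood apart and both dCas12a-VPR groups lay within the range of sgTet. HOXA7 fell by 1.45 ± 0.20 (SE) on the log2 scale, or 2.74-fold, at an edgeR adjusted p of 4.43e-05. That was 1 of 37 members called, and 0 higher, where 0.795% of all tested genes were called, 0.47% higher and 0.325% lower. Without sgTet replicate 2 the count of called members was 2, among 1475 of all genes, against 132 with all libraries. At an unadjusted p under 0.05, 2 members were higher and 5 lower, and DESeq2 also called 1 member, lower. Of the 37 fold changes, 18 were above 0 and 19 below, with a median of -0.0094 log2, against 0.00028 over all tested genes. CPM did not overlap between the groups for 7 members that were higher and 8 that were lower, against 20.6% and 20.2% of all genes.

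HOXA7 lies between HOXA6 and HOXA9. The RefSeq windows for these 3 genes are shown (GRCh38.p14, 250 bases before to 50 after the start, all on the minus strand). This place was chosen because the contrasts below that use the sgNT libraries were largest in size at HOXA7. Capitals mark matches on either strand to TATAAA, to the CCAAT box and to the GC box GGGCGG. They lie at chr7:27147725-27148024, chr7:27156626-27156925 and chr7:27165488-27165787.
HOXA6: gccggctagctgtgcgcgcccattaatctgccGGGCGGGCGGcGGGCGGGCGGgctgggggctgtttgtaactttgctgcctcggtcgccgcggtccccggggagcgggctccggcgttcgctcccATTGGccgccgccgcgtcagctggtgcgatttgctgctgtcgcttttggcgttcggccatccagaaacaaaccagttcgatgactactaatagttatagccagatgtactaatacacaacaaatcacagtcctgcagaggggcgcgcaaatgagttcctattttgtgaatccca
HOXA7: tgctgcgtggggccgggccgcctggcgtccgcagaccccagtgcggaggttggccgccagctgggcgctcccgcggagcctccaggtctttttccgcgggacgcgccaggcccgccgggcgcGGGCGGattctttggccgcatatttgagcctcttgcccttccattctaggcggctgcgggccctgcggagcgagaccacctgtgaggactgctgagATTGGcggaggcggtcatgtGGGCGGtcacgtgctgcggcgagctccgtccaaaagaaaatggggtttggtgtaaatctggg
HOXA9: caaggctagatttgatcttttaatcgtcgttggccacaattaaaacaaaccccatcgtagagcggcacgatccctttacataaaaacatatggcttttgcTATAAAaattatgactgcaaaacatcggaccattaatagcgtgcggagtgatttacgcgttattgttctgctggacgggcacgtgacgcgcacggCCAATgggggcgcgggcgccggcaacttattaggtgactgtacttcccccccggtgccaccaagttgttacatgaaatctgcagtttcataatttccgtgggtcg
The HOXA6 and HOXA7 windows hold 29 and 31 CG dinucleotides, GC box letters at 4 and 2 places and no TATAAA. The HOXA9 window holds 22 CG dinucleotides, 1 TATAAA and no GC box letters, and each of the 3 has 1 CCAAT box. HOXA5, next to HOXA6, is named only.

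The fall of HOXA7 was seen in reads assigned to HOXA7 alone, and not in its reads shared with another gene. The former cover the 5′ part of HOXA7. In GENCODE release 29 the gene spans chr7:27153716-27157936, and 904 of its 2411 exon bases (37.5%) are unshared. Those hold 379 coding bases, and the other 311 coding bases lie within the 1507 bases shared with HOXA-AS3, a non-coding RNA of the opposite strand. Reads over the shared bases can be counted from the strand columns. They numbered 284 and 365 in sgTet, 286 and 294 in sgNT, 288 and 248 in crTet, and 143 and 184 in crNT. As CPM this was 14.2 and 17.6 in sgTet and 14.6 and 16.7 in sgNT, so the shared reads overlapped where the unshared ones did not. The log2 ratio of mean CPM, sgTet over sgNT, was -1.46 for unshared and 0.02 for shared reads. Shared reads can come from either gene, and whether the whole HOXA7 transcript changed was not tested. With the sum of the strand columns, which adds them back, the HOXA7 change was -0.54 log2 at an edgeR adjusted p of 0.0524. With the forward-strand column alone the adjusted p was 0.164, and with the reverse-strand column 0.0928. Over the 17 alternatives it ranged from 2.87e-10 to 0.164.

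A second row at the same place had its highest values in sgNT. ENSG00000270182, classed as sense intronic, lies on the plus strand at chr7:27158344-27158976, and starts 408 bases beyond the 5′ end of HOXA7. It had 18 and 44 reads in sgTet, 102 and 68 in sgNT, 18 and 11 in crTet, and 11 and 18 in crNT. The sgNT libraries again lay above all others. Its change with the Tet guide under dCasMINI-VPR was -1.58 ± 0.42 log2 at an edgeR adjusted p of 0.0620, which did not pass the threshold. Between the non-targeting groups it was higher in sgNT than in crNT by 2.64 ± 0.45 log2 (edgeR adjusted p = 0.000156), in all 17 alternatives. HOXA6 on the other side had 17.0 and 14.9 CPM in sgTet, 20.7 and 24.8 CPM in sgNT, 15.8 and 13.7 CPM in crTet, and 11.4 and 12.5 CPM in crNT. The HOXA6 difference between sgTet and sgNT, -0.51 ± 0.15 log2, was not called (edgeR adjusted p = 0.103).

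**Figure D3:**
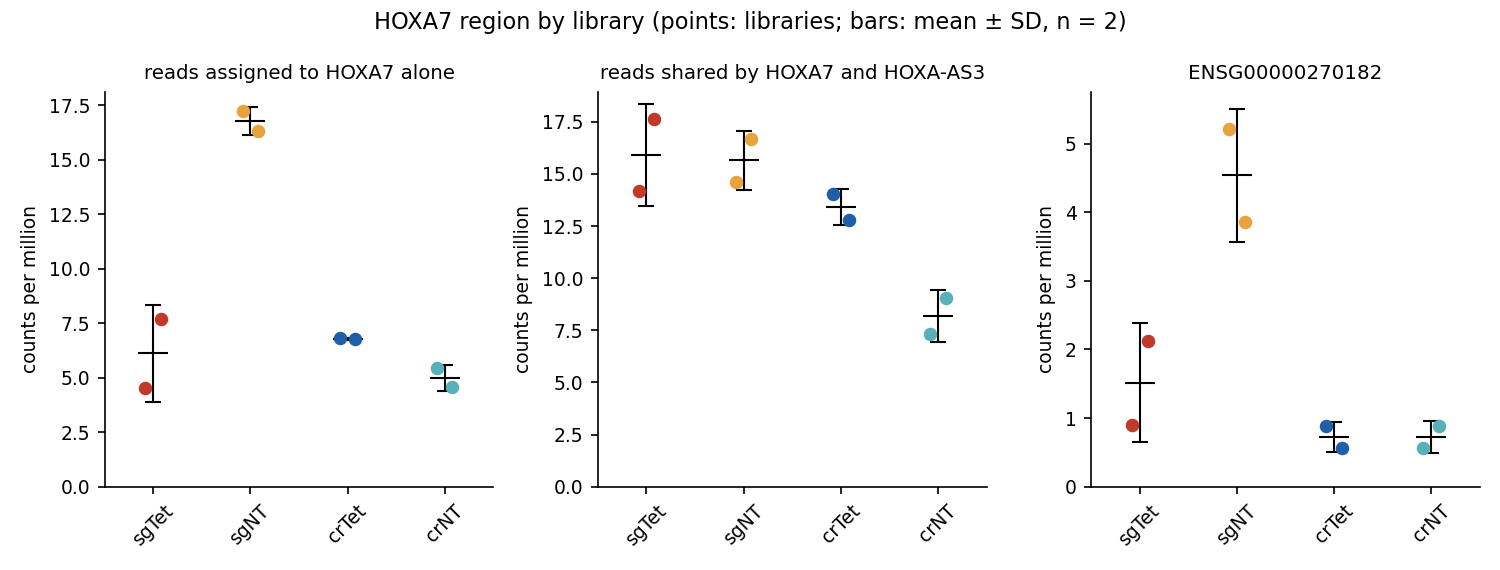
CPM by library for reads assigned to HOXA7 alone, reads shared by HOXA7 and the opposite-strand HOXA-AS3, and ENSG00000270182 upstream; points are libraries and bars are mean ± SD (n = 2). The sgNT libraries stand apart in the first panel (17.2 and 16.3) and in the third, and overlap sgTet in the second.

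With dCas12a-VPR, 11 HOX genes rose with the Tet guide and none fell. Among them were HOXA5, HOXA10, HOXA11, HOXA13, HOXB6, HOXB8, HOXB9, HOXC9, HOXD9 and HOXD10. The background was 6.32% of tested genes called, 3.56% higher and 2.75% lower. No member was lower also at an unadjusted p under 0.05, where 17 were higher, and DESeq2 called 7 higher and 0 lower. Of the 37, 35 fold changes were above 0, with a median of 0.35 log2 against 0.01 over all tested genes. CPM did not overlap for 29 members that were higher and 1 that was lower, against 26.3% of all genes in each direction. Median fold changes by cluster were 0.43 in HOXA, 0.33 in HOXB, 0.24 in HOXC and 0.28 in HOXD.

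The group 13 to 10 genes of HOXA, which act in limb and urogenital tract, were among those that rose. HOXA13, mutated in hand-foot-genital syndrome, had 18.3 and 21.0 CPM in sgTet, 19.9 and 18.2 in sgNT, 21.5 and 22.3 in crTet, and 11.5 and 14.8 in crNT. Its crNT libraries lay below the other 6, and its rise of 0.74 ± 0.15 log2 (edgeR adjusted p = 0.00184) was the largest of the 11. HOXA11, a limb and kidney gene, had 23.0 and 25.1 CPM in sgTet, 28.8 and 29.9 in sgNT, 26.7 and 33.2 in crTet, and 21.4 and 22.9 in crNT, a rise of 0.43 ± 0.13 with dCas12a-VPR. The sgTet values of HOXA11 were close to those of crNT. HOXA10, a uterine patterning gene, had 59.1 and 59.7 CPM in sgTet, 65.3 and 54.2 in sgNT, 47.8 and 54.2 in crTet, and 36.4 and 42.9 in crNT, a rise of 0.36 ± 0.11.

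Further forward in HOXA, HOXA5 had 123 and 107 CPM in sgTet, 130 and 132 in sgNT, 92.6 and 88.5 in crTet, and 64.5 and 69.4 in crNT. The 4 groups of HOXA5 did not overlap, and the rise with dCas12a-VPR was 0.43 ± 0.09 (edgeR adjusted p = 0.00175), or 1.35-fold.

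In HOXB and HOXC the genes that rose belong to groups 6 to 9, which pattern the trunk. HOXB9 had 259 and 264 CPM in sgTet, 262 and 281 in sgNT, 257 and 241 in crTet, and 199 and 198 in crNT. Both crNT libraries of HOXB9 lay below all others, and the rise was 0.33 ± 0.07 (edgeR adjusted p = 0.0038). HOXB8, expressed in haematopoietic progenitors, had 30.6 and 31.7 CPM in sgTet, 26 and 32.6 in sgNT, 29.4 and 28.1 in crTet, and 17.1 and 20.6 in crNT, a rise of 0.61 ± 0.13. HOXB6 had 28.1 and 31.4 CPM in sgTet, 29.3 and 31.1 in sgNT, 23.6 and 30.5 in crTet, and 19.2 and 19.9 in crNT, a rise of 0.47 ± 0.13. For HOXB6 the other 3 groups overlapped, and for HOXB8 the sgNT range spanned those of sgTet and crTet. HOXC9, which sets thoracic motor neuron identity in mice, had 24.4 and 27.4 CPM in sgTet, 27.7 and 29.2 in sgNT, 24.9 and 27.2 in crTet, and 17.7 and 18.0 in crNT. Its rise was 0.55 ± 0.13 (edgeR adjusted p = 0.00721).

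In HOXD the neighbours HOXD9 and HOXD10, both active in limb buds, rose. HOXD9 had 8.89 and 12.8 CPM in sgTet, 8.65 and 10.3 in sgNT, 10.2 and 9.39 in crTet, and 5.58 and 6.74 in crNT, a rise of 0.67 ± 0.20. HOXD10 had 28.9 and 23.0 CPM in sgTet, 22.2 and 26.8 in sgNT, 26.8 and 21.7 in crTet, and 15.6 and 17.0 in crNT, a rise of 0.57 ± 0.15. HOXD13, the highest HOXD gene, was not called, with 195 and 193 CPM in sgTet, 173 and 164 in sgNT, 167 and 181 in crTet, and 144 and 157 in crNT. Its difference with dCas12a-VPR was 0.21 ± 0.08 log2 (edgeR adjusted p = 0.102).

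The 11 calls with dCas12a-VPR depended on single libraries. Without crNT replicate 1 none was called, with edgeR adjusted p-values of 0.110 (HOXB9) to 0.55 (HOXA10) among the genes named, while the members' median fold change was 0.32 log2. Without crNT replicate 2, 3 were called (HOXA5, HOXA13 and HOXB8), without crTet replicate 1, 7, without crTet replicate 2, 5, and without either sgNT library, 9. Calls over all genes fell as well, to 135 and 342 when the first or the second crNT library was left out and to 518 and 449 when the first or the second crTet library was, against 1049 with all libraries. HOX transcripts are richer in G and C than most: the members' median was 55.3%, against 48.7% over all tested genes. Tested genes of 52.0% to 57.8% GC had a median fold change of 0.05 log2 in this comparison, and after removal of a per-library trend with GC and length 11 members were called, 10 of them among the first 11 and HOXD9 no longer (edgeR adjusted p = 0.0729).

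**Figure D4:**
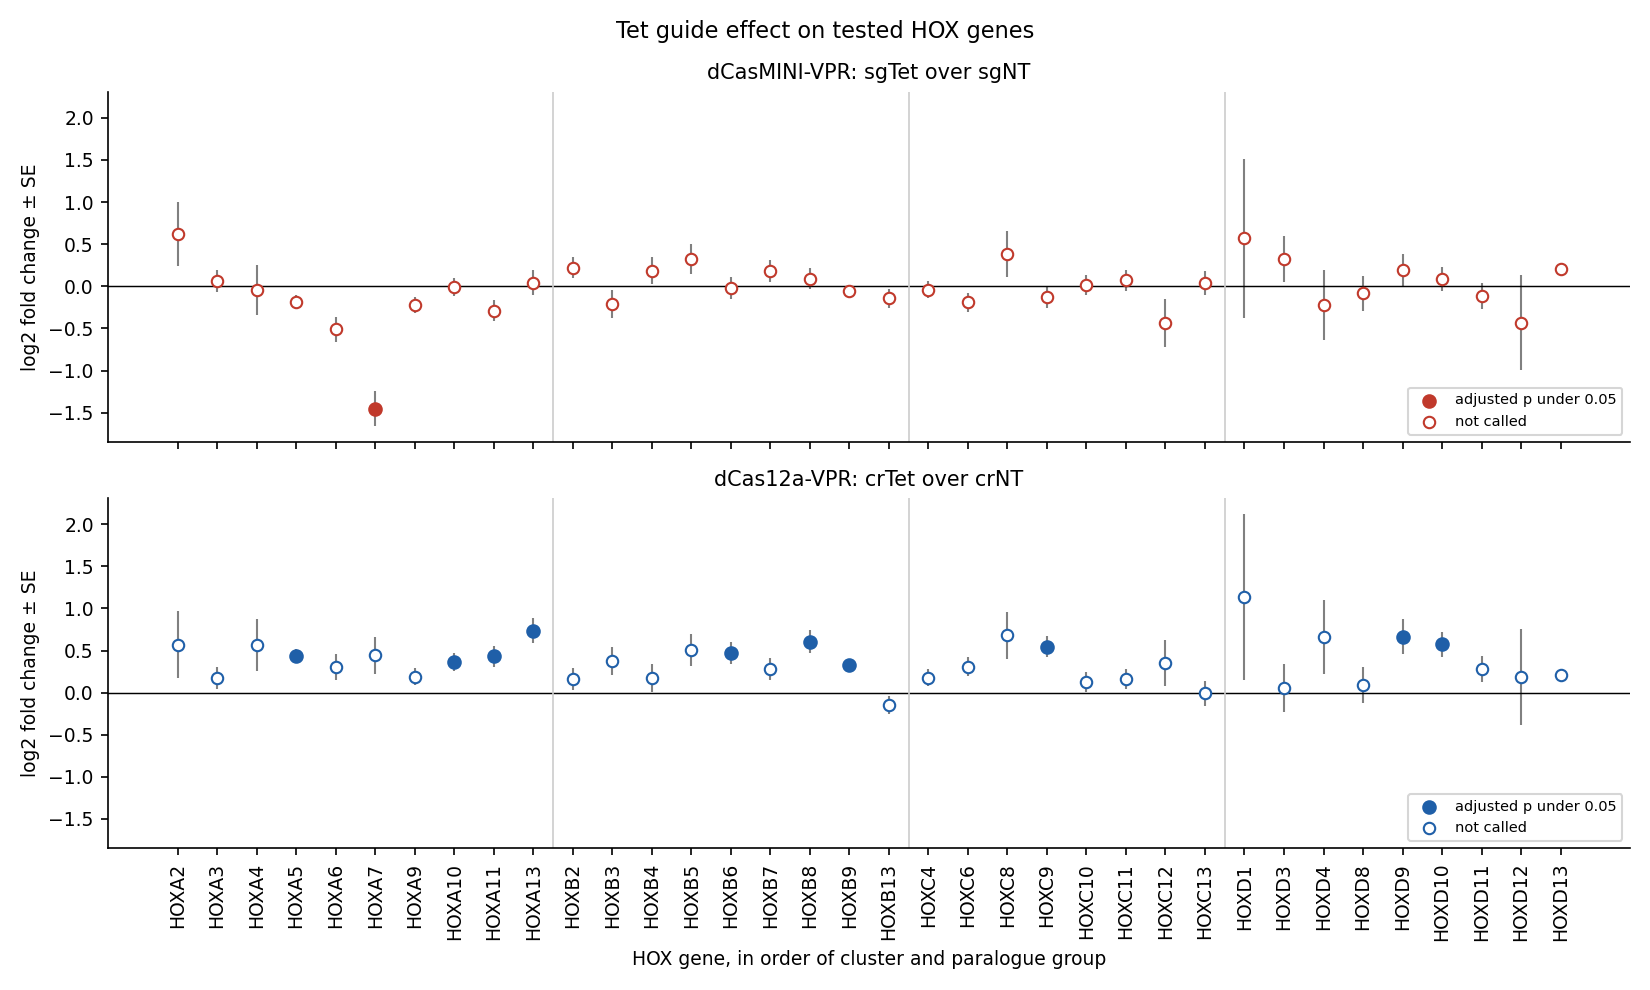
Log2 fold change ± SE of tested HOX genes with the Tet guide, for dCasMINI-VPR (top) and dCas12a-VPR (bottom); filled points had an adjusted p under 0.05. HOXA7 (-1.45) is the filled point above, and 10 genes between 0.33 and 0.74 are filled below.

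The test of the difference between the guide effects called 6 HOX genes, in each of which the effect was lower with dCasMINI-VPR than with dCas12a-VPR. They were HOXA5, HOXA6, HOXA7, HOXA11, HOXB9 and HOXC9. The background was 1.35% of tested genes called, 0.506% higher and 0.843% lower, and 14 members were lower and 0 higher at an unadjusted p under 0.05. DESeq2 called 5 lower and 0 higher. This contrast uses the same 8 libraries as the guide effects and is no separate evidence for them. HOXA7 differed most, by -1.90 ± 0.30 log2 (edgeR adjusted p = 0.000555), from -1.45 ± 0.20 with dCasMINI-VPR and 0.44 ± 0.22 with dCas12a-VPR. For HOXA5 the difference was -0.62 ± 0.12 (edgeR adjusted p = 0.00555), for HOXA6 -0.81 ± 0.21, for HOXA11 -0.72 ± 0.18, for HOXC9 -0.68 ± 0.18 and for HOXB9 -0.38 ± 0.10. HOXA6, HOXA11, HOXC9 and HOXB9 had edgeR adjusted p-values of 0.036 to 0.0481. The members' median difference was -0.40 log2, against -0.01 over all tested genes, and -0.62 within HOXA. Tested genes of 52.0% to 57.8% GC had a median of -0.10. After removal of a per-library trend with GC and length the members' median was -0.30, and 4 members were called, 3 of them among the 6. HOXA6, HOXB9 and HOXC9 were then not called (edgeR adjusted p = 0.196, 0.0751 and 0.0681).

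The difference held for HOXA7 when any 1 library was left out. For HOXA5 it ended without sgNT replicate 2 (edgeR adjusted p = 0.0758) or crNT replicate 1 (0.0961). With either of these 2 libraries left out, HOXA7 was the 1 member still called, among 28 and 30 genes in all. Of the 6, 2 were called when crNT replicate 2 was left out, and 3 when sgNT replicate 1 or crTet replicate 1 was. All 6 and 3 further members were called when sgTet replicate 2 was left out, where 1835 of all genes were called against 224 with all libraries, and 4 members when sgTet replicate 1 or crTet replicate 2 was.

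With non-targeting guides, 16 HOX genes were higher with dCasMINI-VPR (sgNT) than with dCas12a-VPR (crNT), and none was lower. The background was 7.68% of tested genes called, 4.09% higher and 3.6% lower. No member was lower also at an unadjusted p under 0.05, where 23 were higher, and DESeq2 called 15 higher and 0 lower. These 2 groups carry no guide for the reporter and differ in the activator and the type of guide. By cluster, 8 of 11 tested HOXA genes were called, 3 of 9 HOXB, 4 of 8 HOXC and 1 of 9 HOXD. The median over the 37 was 0.46 log2, against 0.00013 over all tested genes, and 34 fold changes were above 0. CPM did not overlap for 30 members that were higher and 1 that was lower, against 27.3% and 27.9% of all genes. The comparison shares the crNT libraries with the dCas12a-VPR guide effect, whose values for the same genes were given above.

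Along HOXA the fold change was largest at HOXA7 and mostly smaller further away, though not in strict order, and a gradient was not tested. From HOXA2 to HOXA6 they were 0.46 ± 0.41, 0.49 ± 0.13, 0.70 ± 0.31, 0.97 ± 0.09 and 0.93 ± 0.15 log2. HOXA7 stood at 1.75 ± 0.21 (edgeR adjusted p = 3.72e-07), or 3.36-fold, in reads assigned to it alone. For the reads HOXA7 shares with HOXA-AS3 the log2 ratio of mean CPM was 0.94, so the peak rests on the unshared reads. From HOXA9 to HOXA13 the fold changes were 0.75 ± 0.10, 0.59 ± 0.11, 0.41 ± 0.13 and 0.53 ± 0.15. HOXA2 and HOXA4 were not called. HOXA5 was higher in sgNT at an edgeR adjusted p of 6.43e-10, HOXA9 at 9.68e-07 and HOXA6 at 8.06e-05. HOXA9 had 64.3 and 60.0 CPM in sgTet, 70.6 and 74.0 in sgNT, 49.1 and 48.9 in crTet, and 42.3 and 43.6 in crNT, in 4 groups that did not overlap. HOXA3, which acts in thymus and parathyroid, had 26.4 and 27.0 CPM in sgTet, 24.6 and 26.5 in sgNT, 21.6 and 19.2 in crTet, and 17.2 and 18.9 in crNT. For HOXA3 both sgTet libraries were as high as sgNT.

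**Figure D5:**
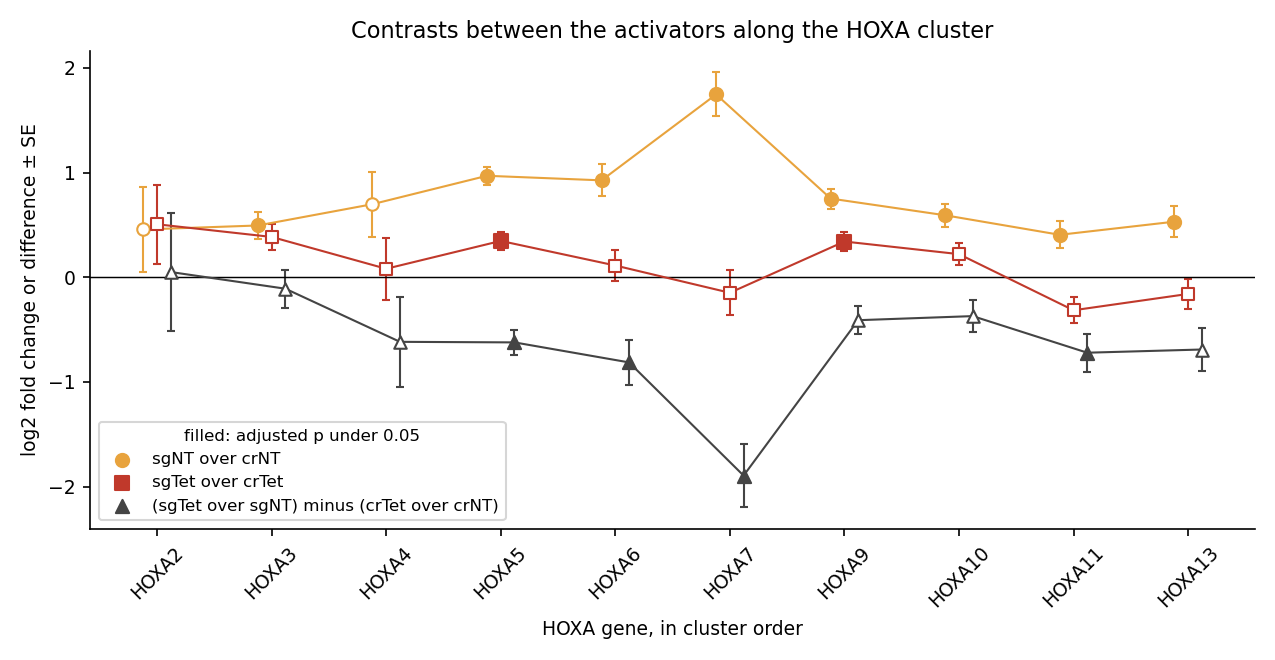
Log2 fold change ± SE of HOXA genes in cluster order for sgNT over crNT, sgTet over crTet, and the difference between the Tet guide effects; filled symbols had an adjusted p under 0.05. The first peaks at HOXA7 (1.75), the last is lowest there (-1.90), and the second stays between -0.32 and 0.51. By construction the last is the second minus the first, so its low point is no separate result.

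In the other clusters 8 genes were called between the non-targeting groups. HOXB9 was higher in sgNT by 0.45 ± 0.07 (edgeR adjusted p = 4.38e-05), HOXB6 and HOXB8 by 0.63 ± 0.13 each and HOXD10 by 0.59 ± 0.15. In HOXC, HOXC9 was higher by 0.67 ± 0.13, HOXC10 by 0.44 ± 0.12, HOXC6 by 0.37 ± 0.11 and HOXC4 by 0.36 ± 0.10. HOXC10, a lumbar motor neuron gene in mice, had 32.0 and 30.4 CPM in sgTet, 29.99 and 31.9 in sgNT, 24.2 and 25.6 in crTet, and 22.7 and 23.0 in crNT. Both dCasMINI-VPR groups of HOXC10 lay above both dCas12a-VPR groups. HOXC4 had 47.0 and 49.3 CPM in sgTet, 47.2 and 51.9 in sgNT, 44.2 and 42.9 in crTet, and 38.7 and 38.3 in crNT. HOXC6 had 31.5 and 31.0 CPM in sgTet, 34.9 and 36.6 in sgNT, 34.0 and 34.5 in crTet, and 27.8 and 27.4 in crNT. For these 2 genes crNT was lowest without overlap. HOXC11, HOXC12 and HOXC13, the 5′ end of the cluster, were not called, at 0.02 ± 0.12, -0.12 ± 0.28 and -0.07 ± 0.15.

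HOXA5, HOXA6, HOXA7, HOXA9, HOXB9 and HOXC9 kept an edgeR adjusted p under 0.05 between the non-targeting groups in all 17 alternatives. The count fell to 7 without sgNT replicate 2 or crNT replicate 1, to 11 without crNT replicate 2 and to 12 without sgNT replicate 1. Calls over all genes fell in the same fits to 333 (sgNT replicate 2), 399 (crNT replicate 1), 504 (crNT replicate 2) and 832 (sgNT replicate 1), against 1276 with all libraries. Among the genes that lost the call without crNT replicate 1, edgeR adjusted p-values ran from 0.0525 (HOXA10) to 0.422 (HOXA13). HOXA7 was also called with the strand columns, at 1.30 log2 (adjusted p = 1.56e-07) with their sum. For its reads shared with HOXA-AS3 the log2 ratio of mean CPM, sgNT over crNT, was 0.94.

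With the Tet guides, 2 HOX genes were higher with dCasMINI-VPR (sgTet) than with dCas12a-VPR (crTet). HOXA5 was higher by 0.35 ± 0.08 log2 (edgeR adjusted p = 0.0129) and HOXA9 by 0.34 ± 0.09 (0.0307). The background was 4.28% of tested genes called, 1.68% higher and 2.6% lower. No member was called lower, and 7 were higher and 2 lower at an unadjusted p under 0.05, and DESeq2 called 2 higher and 0 lower. The median over the members was 0.10 log2, with 25 of 37 above 0. HOXA7 was not called, at -0.15 ± 0.22. CPM did not overlap for 15 members that were higher and 5 that were lower, against 22.0% and 22.5% of all genes. Neither call held without sgTet replicate 1 (adjusted p = 0.131 and 0.146), crTet replicate 1 (0.0525 and 0.129) or crTet replicate 2 (0.145 and 0.158), for HOXA5 and HOXA9 in that order. Calls over all genes fell to 379, 370 and 331 in these 3 fits, against 711 with all libraries. The HOXA9 call also ended when any sgNT or crNT library was left out (adjusted p of 0.0526 to 0.0656).

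Among members not called in a comparison, the 2 furthest from 0 were mostly genes of low level. With dCasMINI-VPR they were HOXA2 (0.62 ± 0.38), which patterns the second arch, and HOXD1 (0.57 ± 0.94). With dCas12a-VPR they were HOXD1 (1.13 ± 0.99) and HOXC8 (0.68 ± 0.28), and for the difference HOXD4 (-0.89 ± 0.60) and HOXC12 (-0.79 ± 0.40). Between the non-targeting groups they were HOXD4 (0.89 ± 0.43) and HOXA4 (0.70 ± 0.31), and between the Tet groups HOXC12 (-0.91 ± 0.28) and HOXD3 (0.59 ± 0.28). HOXC12 came closest to the threshold between the Tet groups, with 3.35 and 3.48 CPM in sgTet against 7.07 and 5.78 CPM in crTet (edgeR adjusted p = 0.0585). HOXD1 rested on 0.145 to 0.749 CPM per library, which leaves its fold changes with errors of 0.87 to 1.37 log2.

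Of 26 listed non-coding RNAs of the clusters, 24 were matched and 16 were tested. For the dCas12a-VPR guide effect 1 of the 16 was called, higher, and between the non-targeting groups 1 was higher in sgNT, where 6.32% and 7.68% of all tested genes were called. None was called in the other 3 contrasts by edgeR or DESeq2, where at most 2 had an unadjusted p under 0.05. HOXA-AS3 had 3.75 and 3.67 CPM in sgTet, 3.02 and 4.14 in sgNT, 2.24 and 3.04 in crTet, and 1.18 and 1.28 in crNT. It was higher in sgNT than in crNT by 1.53 ± 0.35 log2 (edgeR adjusted p = 0.00411), a call that ended without sgNT replicate 2 (0.126) or crNT replicate 1 (0.0798). Of the reads on its exons 93.3% were shared with the opposite strand. HOXD-AS2, beside HOXD3, had 3.61 and 2.68 CPM in crTet against 1.64 and 0.787 CPM in crNT, a rise of 1.38 ± 0.40 (edgeR adjusted p = 0.0322). That call ended without either crTet or either crNT library and with the strand columns (edgeR adjusted p of 0.347 to 0.54). It also ended with the GC and length trend removed (0.0862) and, barely, with DESeq2 (adjusted p = 0.050007). The median of the 16 was 0.48 log2 for the dCas12a-VPR guide effect and 0.43 between the non-targeting groups, against 0.35 and 0.46 over the HOX genes. HOTAIR, the HOXC non-coding RNA linked to Polycomb, was not called in any of the 5 contrasts.

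Within 250 kb of the clusters 43 genes that are not HOX genes were tested. Of these 1 was called with dCasMINI-VPR (2.33%), 2 with dCas12a-VPR (4.65%), 2 for the difference (4.65%), 5 between the non-targeting groups (11.6%) and 1 between the Tet groups (2.33%). Over all tested genes the shares were 0.795%, 6.32%, 1.35%, 7.68% and 4.28% in the same order. The 5 include HOXA-AS3 and ENSG00000270182. ENSG00000264451, on the HOXB side, had 4.995 and 5.03 CPM in sgTet against 0.154 and 0.283 CPM in sgNT, and 0.0487 and 0.103 CPM in crTet against 0.102 and 0.197 CPM in crNT. With dCasMINI-VPR it rose by 4.50 ± 0.56 log2 (edgeR adjusted p = 4.86e-06), while HOXB genes in the same libraries had a median of 0.09 log2. SNF8, an ESCRT subunit gene, rose by 0.65 ± 0.14 with dCas12a-VPR (adjusted p = 0.0038), and not without crTet replicate 2 (0.209) or crNT replicate 1 (0.143), nor with the strand columns (0.326 to 0.459). CBX5, which encodes heterochromatin protein HP1 alpha beside HOXC, was lower in sgNT than in crNT by -0.30 ± 0.08 log2. LNPK beside HOXD was lower by -0.34 ± 0.09. Both calls ended without sgNT replicate 2 or either crNT library (0.126 to 0.398).

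Of the DNA-binding partners of HOX proteins, all 9 PBX, MEIS and PKNOX genes were tested. PBX2 had 50.2 and 58.8 CPM in sgTet against 68.8 and 77.7 CPM in sgNT, and 75.4 and 79.4 CPM in crTet against 78.4 and 79.5 CPM in crNT. It fell by 0.43 ± 0.10 log2 with dCasMINI-VPR (edgeR adjusted p = 0.019). That call ended without sgTet replicate 1 or sgNT replicate 2. It also ended with the forward-strand column (0.142) and with only the groups compared (0.0821). Between the Tet groups PBX2 (-0.50 ± 0.10) and MEIS3 (-0.64 ± 0.12) were lower in sgTet than in crTet. None of the 9 was called with dCas12a-VPR or between the non-targeting groups by edgeR or DESeq2, where 2 and 3 had an unadjusted p under 0.05.

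Of the regulators of HOX chromatin, the trithorax and activator list was called most often in the 2 comparisons that share the crNT libraries. Of its 22 tested genes, 7 rose with dCas12a-VPR and 0 fell, with a list median of 0.18 log2, and 6 were higher in sgNT than in crNT with a median of 0.15. Over all tested genes 3.56% rose with dCas12a-VPR and 4.09% were higher in sgNT than in crNT. KMT2D, a histone H3 lysine 4 methyltransferase gene, had 118 and 91.3 CPM in crTet against 57.4 and 55.8 CPM in crNT, a rise of 0.89 ± 0.13 (edgeR adjusted p = 0.000424) that held in all 17 alternatives. SETD1A, another such gene, had 152 and 137 CPM in crTet against 110 CPM in both crNT libraries, a rise of 0.40 ± 0.08. DOT1L and MLLT1, of the H3 lysine 79 methylation machinery, rose by 0.33 ± 0.09 and 0.31 ± 0.09. The SETD1A, DOT1L and MLLT1 calls ended without crNT replicate 1 (0.0739, 0.295 and 0.157) or crTet replicate 1 (0.0628, 0.197 and 0.185). DOT1L and MLLT1 also lost theirs without crTet replicate 2 or crNT replicate 2 (0.0559 to 0.305). Between the non-targeting groups SETD1A (0.61 ± 0.08) and KMT2B (0.58 ± 0.11) were higher in sgNT in all 17 alternatives. With dCasMINI-VPR none of the 22 was called by edgeR or DESeq2, and 2 had an unadjusted p under 0.05.

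Of 31 tested Polycomb genes, where 3.56% of all genes rose, 3 rose with dCas12a-VPR (JARID2 by 0.57 ± 0.12, PCGF2 by 0.56 ± 0.14 and CBX6 by 0.32 ± 0.09), with a list median of -0.0075 log2. These 3 calls also ended without crNT replicate 1 (edgeR adjusted p of 0.207, 0.246 and 0.371), JARID2 and CBX6 also without crTet replicate 1 (0.0765 and 0.221), and PCGF2 and CBX6 also without crTet replicate 2 (0.0994 and 0.199) or crNT replicate 2 (0.0679 and 0.149). CBX6 lost its call without either sgNT library too (0.0615 and 0.0605). JARID2 and CBX6 were higher in sgNT than in crNT by 0.45 ± 0.13 and 0.50 ± 0.09, and JARID2 lost this without sgNT replicate 2 (0.387) or crNT replicate 1 (0.39). EZH2, the H3 lysine 27 methyltransferase gene, had 121 to 155 CPM and was not called.

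Of the retinoic acid pathway genes, 18 of 20 were tested. None was called with either Tet guide by edgeR or DESeq2, where 5 (dCasMINI-VPR) and 1 (dCas12a-VPR) had an unadjusted p under 0.05. CRABP2, a retinoic acid carrier, had 37.1 and 37.7 CPM in sgNT against 71.1 and 66.3 CPM in crNT, and 31.5 and 27.6 CPM in sgTet against 71.2 and 76.5 CPM in crTet. It was lower with dCasMINI-VPR by -0.88 ± 0.10 between the non-targeting groups and by -1.32 ± 0.10 between the Tet groups (edgeR adjusted p = 1.68e-07 and 2.59e-11), in all 17 alternatives. Among CDX, ParaHox and related homeobox genes 6 of 13 were tested and 0 were called in any contrast by edgeR or DESeq2, with at most 3 at an unadjusted p under 0.05. CDX2, an activator of HOX genes in the posterior embryo, had 36.8 to 49.3 CPM.

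The profile of each called member over the 8 libraries was set beside those of all tested genes, by Pearson correlation of log2 CPM, as a description. The points share depth and group. The 3 genes nearest to each of the 18 members called in any contrast made 54 pairs, and in 2 of them the other gene was also a HOX gene: HOXA5 and HOXA9 each stood second for the other, with r = 0.98. HOXA5 lay nearest to PSPC1 (0.98), and HOXB9 to SMARCA4, RAI1 and SETD1A (0.99 each). HOXA7, with its own pattern, lay nearest to HCG11 (0.96), PNMA6A (0.96) and ENSG00000258682 (0.95).

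The promoter letters of part of the family were compared with those of all genes. The RefSeq windows cover 20 of the 39 members in 26 distinct windows of 300 bases, since HOXA3 has 7 and HOXA10 has 2. Of HOXB only HOXB1 and of HOXC only HOXC4 and HOXC5 are covered, so the shares describe mainly HOXA and HOXD. HOXB9 and HOXA5 are not among them. Within them the median number of CG dinucleotides was 22.5, against 14 in 34943 windows of all genes. The CCAAT box was in 17 of 26 HOX windows (65.4%), against 34.6% of all. GGGCGG was in 13 of the 26, against 44.9% of all, and TATAAA in 5 (19.2%), against 11.6%. TGATNNAT, the letters bound by PBX and HOX pairs, was in 3 (11.5%), against 7.42%. Each was searched on both strands, and matches of GGGCGG to each other may overlap. These are letter matches and not sites shown to be used.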

How the data were processed

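Poly(A)-selected RNA of 8 libraries was fragmented and copied with random hexamers, per the labels' protocols. The authors used STAR and hg38, per the submitters' processing notes. The STAR version is not given in the sources used here. Their deposited counts are whole reads for each gene, not normalized. The unstranded count column was used. Its 4 totals that name no gene, 25.3% to 29.9% of all reads, were left out. Counts of all 16606 genes that passed filterByExpr were fitted with edgeR 4.0.16 (robust quasi-likelihood, TMM, R 4.3.3) in 1 model of 4 group means with 4 residual degrees of freedom (prior 28.9). The common biological coefficient of variation was 8.04%. The 2-sided p-values were adjusted by Benjamini-Hochberg over all tested genes in each of 5 contrasts, with a threshold of 0.05. The script was tested on simulated data. CPM use TMM-adjusted library sizes, and the SE was taken from the fold change and the F statistic. A library left alone in its group is assumed to vary like the other groups.

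Exon overlap and positions came from GENCODE release 29 on hg38, matched by ID without version. The authors' annotation release was not stated, so overlaps may differ from those used in counting. Reads shared with the opposite strand are the sum of the strand columns minus the unstranded column. DESeq2 1.42.0, no TMM, no filter, the strand columns, fewer libraries and a replicate block were the alternatives, and a GC and length trend was added after seeing the data.

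Counts, sums and medians cover all members and list genes, of which a few are not reported here by name. Library values are given for members called in a contrast and for the highest member of each cluster per kb, fold changes for the 2 largest uncalled members per contrast, and up to 4 called genes per list and contrast. ENSG00000270182 was chosen after its values were seen, for its place beside HOXA7. Members, lists and tests were chosen with earlier results of these data known.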

Additional observations from a re-analysis of the deposited data

Results flagged for a closer look

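In 6 HOX genes the Tet guide effect differed between the 2 activators, by an interaction test over all genes (edgeR, adjusted p under 0.05). The log2 effect with dCasMINI-VPR minus that with dCas12a-VPR was -0.62 for HOXA5, -0.81 for HOXA6, -1.90 for HOXA7, -0.72 for HOXA11, -0.38 for HOXB9 and -0.68 for HOXC9. In all 6 the fitted effect was below 0 with dCasMINI-VPR and above 0 with dCas12a-VPR. With dCasMINI-VPR it was small for HOXB9 (-0.05 ± 0.07) and HOXC9 (-0.13 ± 0.12). The 6 were called for a negative difference, so the sign pattern is no separate result. The effect was called for HOXA7 with dCasMINI-VPR (-1.45), for HOXA5, HOXA11, HOXB9 and HOXC9 with dCas12a-VPR, and for HOXA6 with neither activator. The difference was no longer called for HOXA6, HOXB9 and HOXC9 after removal of the GC and length trend. For HOXA11, HOXB9 and HOXC9 it was not called with either strand column or their sum.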

How the results depend on the processing

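The direction of every called HOX value was kept under all alternatives that gave one, and no called value reversed; of 3105 member values, 2926 kept their side of the threshold, 143 lost it and 36 gained it. The single call of the dCasMINI-VPR guide effect became 0 with the forward-strand column, the reverse-strand column or their sum, and ranged from 1 to 2 with 1 library left out. The 11 calls of the dCas12a-VPR guide effect became 7 with library size only, 7 with DESeq2 and 7 with the forward-strand column, and ranged from 0 to 13 with 1 library left out. The 6 calls of the difference became 2 with the forward-strand column, 3 with the reverse-strand column and 3 with their sum, and ranged from 1 to 9. The 16 calls between the non-targeting groups ranged from 7 to 18 with 1 library left out. The 2 calls between the Tet groups became 1 with library size only, 0 with the reverse-strand column, 0 with only the groups compared and 4 with the GC and length trend removed, and ranged from 0 to 3. Each strand column holds part of the reads plus those shared with an opposite-strand gene, and some fits had fewer libraries. The cause of the changed counts was not tested. With the replicate block the counts were 1, 11, 5, 17 and 2 in the 5 contrasts. Deviations of same-numbered libraries within an activator were little correlated (0.03 and 0.05). Such values cannot show whether libraries were prepared as pairs, and pairs across the activators were not checked. At these depths a member under about 1 CPM, such as HOXD1 or HOXD12, had errors of 0.56 log2 or more.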
